A study of Drosophila melanogaster with 9 samples.

Results

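Presynaptic release and transmitter synthesis were followed through 41 named genes of Drosophila melanogaster, out of 16727 gene symbols in the deposited count table. The genes were taken from a fixed list of symbols, and all 41 symbols were found in the table, endoA under the spelling EndoA. By role they comprised 17 genes of synaptic vesicles, calcium sensing and membrane fusion, 6 of the active zone, its calcium channel and presynaptic transport or adhesion, 8 of vesicle endocytosis, 8 of transmitter synthesis and vesicular transport, and 2 of the neuronal membrane and cytoskeleton.

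A synapse releases transmitter when calcium enters the terminal through channels held at the active zone and a vesicle fuses with the membrane by means of SNARE proteins. Synaptotagmins sense the calcium, other proteins prime or clamp the vesicle, and endocytosis retrieves the vesicle membrane afterwards. What a neuron releases is set by its synthesis enzymes and by the vesicular transporter that fills its vesicles: VGlut for glutamate, VAChT for acetylcholine, VGAT for GABA and Vmat for monoamines. Many of these genes mark mature neurons, as opposed to neuroblasts, the stem cells of the fly brain, while others, such as shi and Dap160, serve membrane traffic in many cell types.

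The samples were brain tumours that overexpressed dpn and E(spl)mγ, HES-family repressors that act in neuroblasts, as HA-tagged UAS transgenes in GFP-marked actin flip-out clones. All 3 groups carried this genotype, here called DM, and there was no library of normal brain. T0 libraries were made from the GFP tumour masses that grew from larval brains transplanted into adult w1118 flies, taken 8 to 10 days after the first transplantation from 25 hosts per replicate. T3 libraries came from the fourth round of such transplantation, with 25 hosts and 8 to 10 days of growth again. Primary libraries were made from 150 brains per replicate of larvae in the third instar, 4 days after clone induction, from which GFP-positive cells were sorted after collagenase treatment. Each group had 3 libraries, and each library was a pool of animals. Sorting, dissociation, host, and growth time all separated the transplanted groups from the primary group and cannot be told apart from transplantation itself. The transplanted masses were collected whole, so host cells may be included, and the actin promoter does not restrict the transgenes to one cell type.

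Counts per gene summed to between 7932772 and 14093032 per library, and levels are given as CPM, counts per 1000000 counts of the scaled library size. Values per library are listed for replicates 2, 3 and 4 of T0, then 1, 2 and 4 of T3, then 1, 2 and 4 of primary. The neuroblast gene mira stood at 2360, 2790 and 2320 CPM in T0 and 2440, 2430 and 2390 CPM in T3, against 1880, 1870 and 1740 CPM in primary cells, but the 10 neuroblast markers did not move together: 3 were higher and 3 lower in T0, and 1 was higher and 3 were lower in T3. The shares over all tested genes were 22.4% higher and 23.2% lower in T0, and 23.1% higher and 24.1% lower in T3. The 10 neuroblast markers summed to 5130 to 5540 CPM in T0 and 4450 to 4980 CPM in T3, against 4560 to 5620 CPM in primary cells. Among them ase averaged 39.3 CPM in T0 and 44.6 CPM in T3, against 195 CPM in primary cells. The gene elav, which marks postmitotic neurons, stood at 179, 132 and 191 CPM in T0 and 127, 90.0 and 136 CPM in T3, against 841, 476 and 630 CPM in primary cells. Replicate 2 of T0 stood apart from the other transplanted libraries. In it 6 gut genes summed to 49.9 CPM, against 4.86 and 2.94 CPM in the other T0 libraries, 1.88 to 3.02 CPM in T3 and at most 0.292 CPM in primary. Counts were therefore also made without it. Primary replicate 1 was the highest primary library for 31 of the 39 genes tested, a position it held for 38.2% of all tested genes.

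Most of the presynaptic genes were lower in the transplanted tumours. Of the 39 genes with enough counts to test, 29 fell and 2 rose in T0 masses against primary cells, and 8 did not pass the threshold of an adjusted p under 0.05 in edgeR's quasi-likelihood test. Across all 9082 tested genes 23.2% were lower and 22.4% higher in T0, or 45.6% in all. In T3 masses against primary cells 30 fell, 2 rose and 7 did not pass, where 24.1% of all tested genes were lower and 23.1% higher, or 47.2% in all. The T0 and primary libraries did not overlap for 30 genes that were lower and 2 that were higher, where such separation held for 27.4% of all tested genes in each direction and 54.8% in all. In T3 it held for 33 lower and 2 higher genes, beside 29.0%, 28.9% and 57.9% of all tested genes. Both comparisons use the same 3 primary libraries. The median log2 fold change of the 39 genes was -2.78 in T0 and -2.68 in T3, beside 0.01 and -0.00 over all tested genes. Called falls of at least 4-fold were found for 21 of the 39 in T0 and for 21 in T3, against 8.32% and 8.74% of all tested genes, but 7 of these genes were tested only because of their level in primary cells. Without T0 replicate 2, 27 genes were lower in T0 and 2 higher. In RNA pooled over many cells, whether from whole masses or sorted cells, fewer cells of a type and less RNA per cell cannot be told apart.

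Of the 39 genes, 7 passed the filter on low counts through the primary libraries and so had to differ: Sytbeta, Frq1, Vmat, Gad1, ple, Ddc and Trh. Among the other 32, 22 fell and 2 rose in T0 with a median log2 fold change of -1.16, and 23 fell and 2 rose in T3 with a median of -1.31. Called falls of at least 4-fold were found for 14 of these 32 in T0 and for 14 in T3. Most neuronal markers moved with these genes. Of 12 markers not among the 41 genes, 9 were lower in T0 and 10 in T3, and none was at 0 counts in any group. Of all tested genes 23.2% were lower in T0 and 24.1% in T3. The markers onecut and Rbp9 were called in neither comparison, and jeb and Rdl were tested only because of their level in primary cells. The summed level of the 12 markers was 494 to 757 CPM in T0 and 330 to 533 CPM in T3, against 1420 to 2340 CPM in primary cells. For elav the log2 fold change was -1.95 ± 0.23 (SE) in T0 and -2.46 ± 0.24 in T3, with adjusted p of 4.68e-05 and 8.15e-06. The part of neuron number in the falls was not tested.

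**Figure D1:**
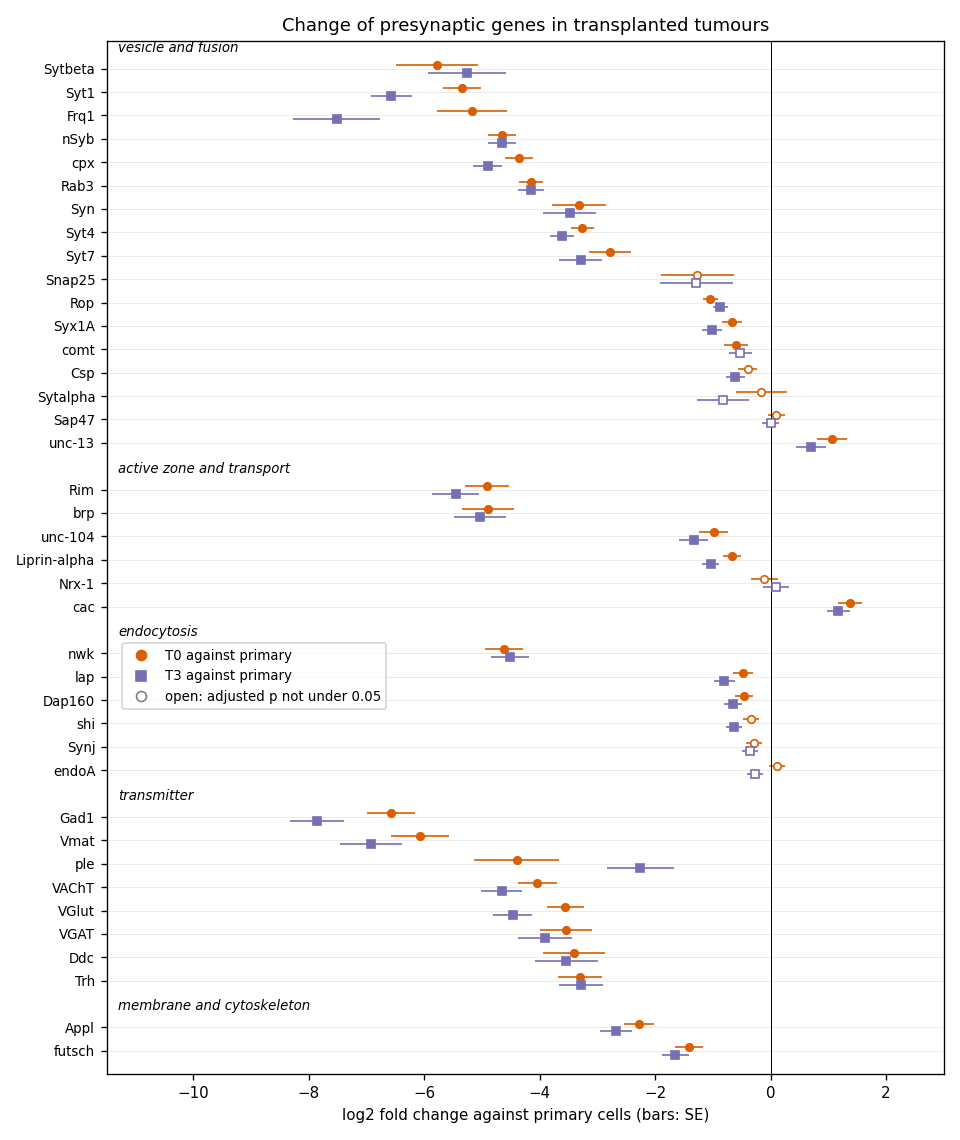
Log2 fold change of the 39 tested presynaptic genes in T0 masses (orange circles) and T3 masses (purple squares) against primary cells, by role, with bars of 1 SE. Filled symbols had an adjusted p under 0.05. All 8 transmitter genes lie left of 0 in filled symbols, and cac and unc-13 are the filled symbols right of 0.

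The vesicle and fusion genes divided into a set with very large falls and a set with small ones. In T0, 12 of 17 fell, unc-13 rose and 4 did not pass, with a median log2 fold change of -2.78. T3 had the same counts, with a median of -3.29. Among all tested genes 23.2% were lower and 22.4% higher in T0, and 24.1% lower and 23.1% higher in T3. Sytbeta and Frq1 were tested only because of their level in primary cells. Without these 2 genes, 10 of 15 fell and 1 rose in each comparison, with medians of -1.27 in T0 and -1.29 in T3. The vesicle SNARE nSyb (neuronal synaptobrevin, chromosome arm 3L, 1630348 to 1637752, dm6) had 4.31, 3.66 and 3.90 CPM in T0 and 3.74, 2.52 and 5.30 CPM in T3, against 118, 83.8 and 96.2 CPM in primary cells. The lowest primary library lay far above the highest transplanted one. This was 25.1-fold lower in T0 (log2 fold change -4.65 ± 0.24, adjusted p = 1.28e-07) and 25.2-fold lower in T3 (-4.66 ± 0.24, adjusted p = 1.15e-07).

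Syt1, the synaptotagmin that triggers fast release (chromosome arm 2L, 2772327 to 2799979), had 1.81, 1.19 and 2.72 CPM in T0 and 1.10, 0.629 and 0.684 CPM in T3, against 110, 59.4 and 70.6 CPM in primary cells. It was 40.8-fold lower in T0 (log2 fold change -5.35 ± 0.33, adjusted p = 3.53e-07) and 94.7-fold lower in T3 (-6.57 ± 0.36, adjusted p = 1.58e-07). The groups did not overlap, and no T3 library reached the lowest T0 library. Complexin (cpx), a clamp on the SNARE complex, had 6.23, 4.03 and 6.40 CPM in T0 and 5.06, 3.02 and 3.16 CPM in T3, against 136, 94.7 and 113 CPM in primary cells. Its falls were 20.5-fold in T0 and 29.8-fold in T3. The vesicle GTPase Rab3 had 2.20 to 3.09 CPM in T0 and 2.26 to 3.08 CPM in T3, against 43.3 to 55.1 CPM in primary cells, and its log2 fold change was -4.15 in each comparison with SE of 0.21 and 0.22.

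Synapsin (Syn), which tethers vesicles in reserve, fell too but varied in T0. It had 9.29, 1.83 and 3.02 CPM in T0 and 4.77, 2.64 and 4.62 CPM in T3, against 59.7, 37.8 and 39.2 CPM in primary cells. The value of T0 replicate 2 was the high one. The log2 fold change in T0 was -3.32 ± 0.46 (adjusted p = 1.40e-04), and -4.21 without that library. In T3 it was -3.48 ± 0.46. On the opposite strand, exons of Timp overlap those of Syn by 249 bases, and Timp was also highest in T0 replicate 2, at 28.3 CPM. The strand setting of the counting is not given in the sources used here, so reads of the pair may not be separable.

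The 5 synaptotagmins among the genes did not move alike. Syt4, which in flies also acts in retrograde signalling at the neuromuscular junction, was 9.59-fold lower in T0 and 12.2-fold lower in T3. Syt7, a slower calcium sensor, was 6.85-fold and 9.77-fold lower in the same order of groups. Sytbeta had 0, 0 and 0.368 CPM in T0 and 0.147, 0.252 and 0.257 CPM in T3, against 11.7, 7.02 and 6.85 CPM in primary cells, with log2 fold changes of -5.78 ± 0.71 and -5.26 ± 0.68. All of its 5 counts in T0 came from replicate 4, so without that library the T0 fold is not estimable. Sytalpha was not called: it had 7.59, 2.29 and 4.34 CPM in T0 and 2.57, 4.53 and 1.97 CPM in T3, against 5.99, 5.33 and 4.41 CPM in primary cells. The groups overlapped, and the log2 fold changes were -0.16 ± 0.44 and -0.82 ± 0.45. Per kb of exon, Syt1 made up 4.58% of the summed level of these 5 genes in T0 (3.45% to 6.03%) and 2.70% in T3 (2.14% to 3.61%), against 21.8% in primary cells (18.6% to 24.8%). The share of Sytalpha was 24.2% in T0 and 23.7% in T3, against 3.30% in primary cells. Syt4 held 50.5%, 53.6% and 55.0% in T0, T3 and primary.

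Frq1 encodes frequenin, a neuronal calcium sensor. It had 0.113, 0.183 and 0.662 CPM in T0 and 0.147, 0 and 0 CPM in T3, against 18.3, 11.2 and 8.91 CPM in primary cells. The T0 log2 fold change was -5.17 ± 0.61 (adjusted p = 4.13e-05), and -6.30 without T0 replicate 4, on 3 counts. For T3, 2 counts stood against 485 in primary, a ratio of 0.00455 with a 95% counting interval of 0.00055 to 0.0165. Its neighbour and near-identical copy Frq2 had 6 counts over T0 and 2 over T3, against 313 over primary. Reads may be split between these copies, so the value of either one alone is uncertain.

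The plasma membrane side of the fusion machinery changed less. Syntaxin (Syx1A) had 33.9, 31.1 and 38.0 CPM in T0 and 22.9, 25.2 and 32.6 CPM in T3, against 63.0, 48.3 and 52.3 CPM in primary cells, which was 1.59-fold lower in T0 (adjusted p = 0.00611) and 2.03-fold lower in T3 (adjusted p = 4.09e-04). About 10.7% of its exon length is shared on the same strand with eIF4EHP. Rop, the Munc18 protein that binds syntaxin, had 36.0, 43.7 and 41.8 CPM in T0 and 47.1, 44.2 and 46.1 CPM in T3, against 73.7, 82.7 and 94.8 CPM in primary cells. It was 2.06-fold lower in T0 and 1.83-fold lower in T3. The ATPase comt (NSF), which takes SNARE complexes apart, had 34.9 to 66.5 CPM in T0 and 46.3 to 62.2 CPM in T3, against 75.1 to 83.6 CPM in primary cells. Its log2 fold change was -0.60 ± 0.20 in T0 (adjusted p = 0.0296) and -0.53 ± 0.20 in T3, which was not called (adjusted p = 0.0502). The T0 call was lost in 3 of 14 alternatives, without T0 replicate 2 (-0.37, adjusted p = 0.0748) and without primary replicate 2 or 4, over a range of adjusted p of 0.0046 to 0.0791. In T3 it passed in 6 of 14, over a range of 0.0128 to 0.175.

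Snap25, a SNARE of the plasma membrane, was not called, and single libraries set its value. It had 28.7, 3.11 and 5.08 CPM in T0 and 19.6, 8.43 and 7.10 CPM in T3, against 25.3, 31.1 and 30.6 CPM in primary cells. Only T0 replicate 2 lay within the primary range. The log2 fold change was -1.27 ± 0.63 in T0 (adjusted p = 0.122) and -1.29 ± 0.63 in T3 (adjusted p = 0.11). Without T0 replicate 2 the T0 value was -2.80 and passed (adjusted p = 3.48e-04), and over all alternatives the adjusted p lay between 3.48e-04 and 0.307. In T3 it passed in 4 of 14 alternatives, over a range of 0.00117 to 0.26, and leaving out T3 replicate 1 gave -1.90, which did not pass. The vesicle co-chaperone Csp had 173, 203 and 249 CPM in T0 and 186, 148 and 205 CPM in T3, against 290, 274 and 262 CPM in primary cells. Its log2 fold change was -0.40 ± 0.17 in T0, not called (adjusted p = 0.0644), and -0.61 ± 0.17 in T3 (adjusted p = 0.00928). Sap47, a synapse-associated protein, had 264, 195 and 230 CPM in T0 and 239, 181 and 221 CPM in T3, against 232, 196 and 214 CPM in primary cells. The groups overlapped, with log2 fold changes of 0.10 ± 0.15 and 0.00 ± 0.15.

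One fusion gene rose. The product of unc-13 primes vesicles for release (chromosome 4, 867824 to 912331), and the gene had 1070, 492 and 675 CPM in T0 and 673, 523 and 544 CPM in T3, against 449, 302 and 321 CPM in primary cells. All 6 transplanted libraries lay above the highest primary one. It was 2.09-fold higher in T0 (log2 fold change 1.06 ± 0.26, adjusted p = 0.00542) and 1.62-fold higher in T3 (0.70 ± 0.26, adjusted p = 0.0414). The T3 call was lost when any one of 5 libraries was left out (primary replicates 2 and 4 and each T3 library, log2 fold changes of 0.58 to 0.77, adjusted p of 0.0526 to 0.137). Exons of the antisense RNA CR44029 overlap those of unc-13 by 705 bases, and that RNA was higher as well, with log2 fold changes of 1.82 ± 0.22 in T0 and 1.23 ± 0.22 in T3. Another antisense RNA, CR43425, lies wholly over unc-13 exons and was not called (0.40 ± 0.32 and -0.04 ± 0.32). The opposite-strand gene CR43361 also overlaps unc-13 exons, and its level was not examined here. With the strand setting not given, reads of unc-13 and of these genes may not be separable. The same limit holds for Sytalpha, VGlut, Vmat, Ddc and Trh, whose exons overlap CG6870, CG18641, CG13330, CG10561 and CG13912 on the opposite strand.

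**Figure D2:**
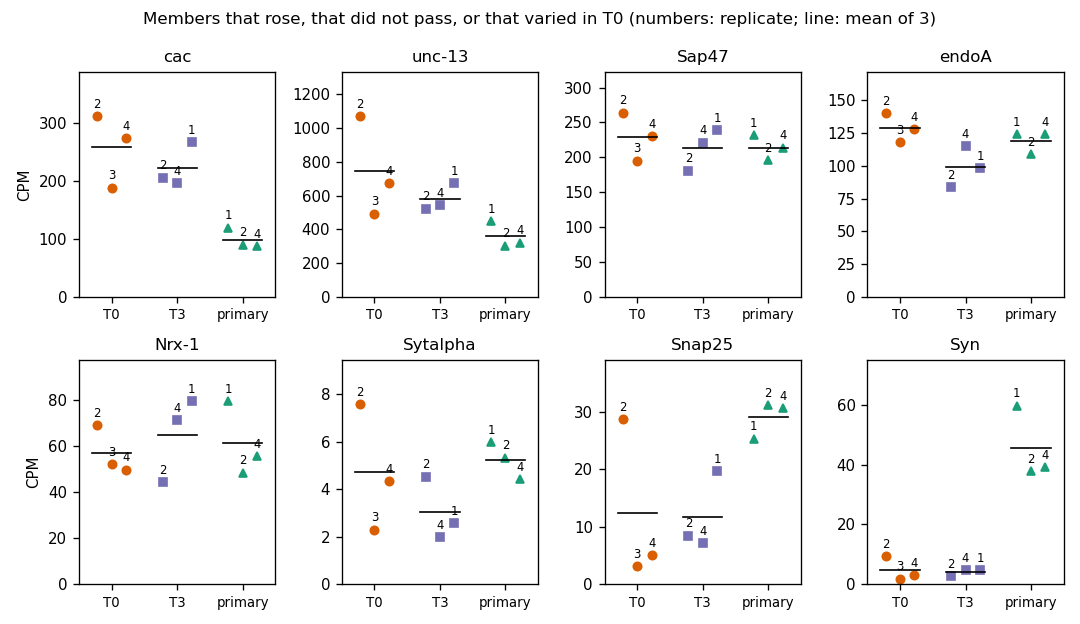
CPM per library of 8 presynaptic genes in T0, T3 and primary libraries, with the replicate number above each point and a line at the mean of 3. The transplanted libraries of cac and unc-13 all lie above the primary ones, Sap47, endoA, Nrx-1 and Sytalpha overlap between groups, and T0 replicate 2 is the high T0 library for Snap25 and Syn.

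At the active zone the scaffold fell and the calcium channel rose. Of 6 genes, 4 fell, cac rose and Nrx-1 was not called, in T0 and in T3 each, with median log2 fold changes of -0.83 and -1.18. Over all tested genes 23.2% were lower and 22.4% higher in T0, and 24.1% lower and 23.1% higher in T3. The scaffold gene brp (Bruchpilot; chromosome arm 2R, 9503765 to 9541565) had 3.85, 1.65 and 3.24 CPM in T0 and 4.25, 1.76 and 1.54 CPM in T3, against 136, 59.4 and 63.9 CPM in primary cells. It was 29.9-fold lower in T0 (log2 fold change -4.90 ± 0.45, adjusted p = 6.06e-06) and 33.0-fold lower in T3 (-5.04 ± 0.45, adjusted p = 4.49e-06). Without T3 replicate 1, the T3 value was -5.71. Rim, a scaffold that links vesicles and channels, had 1.70, 0.733 and 2.13 CPM in T0 and 1.17, 1.01 and 0.941 CPM in T3, against 69.1, 32.8 and 37.6 CPM in primary cells. Its falls were 30.0-fold in T0 and 44.0-fold in T3.

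Liprin-alpha, which organises the active zone, had 89.0, 87.5 and 96.3 CPM in T0 and 73.1, 61.1 and 77.3 CPM in T3, against 176, 130 and 128 CPM in primary cells, a change of 1.59-fold and 2.05-fold downwards. The kinesin gene unc-104, whose product carries vesicle precursors along axons, had 57.7 to 76.3 CPM in T0 and 39.4 to 59.3 CPM in T3, against 99.7 to 192 CPM in primary cells, and was 1.99-fold and 2.51-fold lower. The adhesion receptor gene Nrx-1 (neurexin) had 69.2, 52.1 and 49.7 CPM in T0 and 79.5, 44.2 and 71.4 CPM in T3, against 79.4, 48.4 and 55.7 CPM in primary cells. Its groups overlapped, with log2 fold changes of -0.11 ± 0.23 and 0.09 ± 0.23.

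The gene cac (cacophony; chromosome X, 11931280 to 11985087) encodes the pore subunit of the presynaptic calcium channel. It had 311, 188 and 273 CPM in T0 and 266, 205 and 196 CPM in T3, against 119, 89.7 and 87.2 CPM in primary cells. The lowest transplanted library exceeded the highest primary one. It was 2.61-fold higher in T0 (log2 fold change 1.38 ± 0.21, adjusted p = 2.18e-04) and 2.26-fold higher in T3 (1.17 ± 0.20, adjusted p = 6.11e-04). The call held in every alternative that was run. Partners of the channel, from the list of other release genes, fell: stj, its accessory subunit, had log2 fold changes of -2.20 ± 0.35 and -2.64 ± 0.36, and Rbp, which ties it to the scaffold, of -2.01 ± 0.33 and -2.89 ± 0.35. These partners were chosen for mention after their values were seen.

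Endocytosis genes changed least as a group, with nwk as the exception. Of 8 genes, stnA and stnB were at 0 counts in all 9 libraries. Both are annotated at X, 22980722 to 23004648, with exons that coincide in full on the same strand, and no level is given for them. Of the other 6, 3 fell in T0 and 4 in T3, none rose, and the median log2 fold changes were -0.40 and -0.65. Beside these counts, 23.2% of all tested genes were lower in T0 and 24.1% in T3. In either direction 45.6% and 47.2% of all tested genes were called. The gene nwk (nervous wreck), whose F-BAR protein shapes endocytic membrane, had 1.02, 0.733 and 1.54 CPM in T0 and 1.25, 0.755 and 1.54 CPM in T3, against 33.6, 25.0 and 24.6 CPM in primary cells. It was 24.6-fold lower in T0 (log2 fold change -4.62 ± 0.33, adjusted p = 1.12e-06) and 22.7-fold lower in T3 (-4.51 ± 0.33, adjusted p = 9.98e-07).

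For the other endocytosis genes the largest change was 1.74-fold. The AP180 gene lap, a clathrin adaptor, had 73.6, 70.0 and 85.7 CPM in T0 and 63.7, 50.7 and 69.8 CPM in T3, against 135, 87.5 and 97.5 CPM in primary cells. Its log2 fold change was -0.48 ± 0.18 in T0 (adjusted p = 0.0427) and -0.80 ± 0.18 in T3 (adjusted p = 0.00327). Dap160 (intersectin) had values of -0.46 ± 0.16 in T0 (adjusted p = 0.0321) and -0.65 ± 0.16 in T3 (adjusted p = 0.00543). In T0 the call of lap was lost in 7 of 14 alternatives and that of Dap160 in 5 of 14, among them leaving out primary replicate 1 (adjusted p of 0.194 and 0.132, over ranges that reached 0.196 and 0.132).

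The dynamin gene shi, whose product pinches vesicles off, had 160, 179 and 188 CPM in T0 and 137, 126 and 165 CPM in T3, against 243, 212 and 214 CPM in primary cells. It was lower in T3 (log2 fold change -0.64 ± 0.14, adjusted p = 0.00254) and not called in T0 (-0.34 ± 0.14, adjusted p = 0.0612), although no transplanted library reached the primary range. Endophilin (endoA) had 140, 118 and 128 CPM in T0 and 98.1, 83.7 and 115 CPM in T3, against 124, 109 and 124 CPM in primary cells, and synaptojanin (Synj) had 38.4 to 44.4 CPM in T0 and 38.7 to 41.4 CPM in T3, against 42.2 to 59.3 CPM. Neither was called, with endoA at 0.11 ± 0.14 and -0.27 ± 0.14 and Synj at -0.29 ± 0.14 and -0.36 ± 0.14. For Synj the adjusted p was 0.124 in T0 and 0.0594 in T3, where every T3 library lay below the primary range. Synj passed in 1 of 14 alternatives in T0 (range 0.0356 to 0.39) and in 2 of 14 in T3 (0.0174 to 0.23).

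All 8 transmitter genes fell in both transplanted groups, by at least 8-fold for 8 of them in T0 and 7 in T3. The shares of all tested genes with such called falls were 5.80% and 6.39%. Their median log2 fold changes were -3.80 and -4.19, but 5 of the 8 were tested only because of their level in primary cells. The other 3, VGlut, VAChT and VGAT, had medians of -3.56 and -4.47. Summed over the 8 genes, the level was 39.8, 27.1 and 45.5 CPM in T0 and 22.7, 15 and 25.6 CPM in T3, against 731, 394 and 451 CPM in primary cells. By comparison the 8 endocytosis genes summed to 473 to 521 CPM in T0 and 354 to 458 CPM in T3, against 547 to 693 CPM in primary cells.

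**Figure D3:**
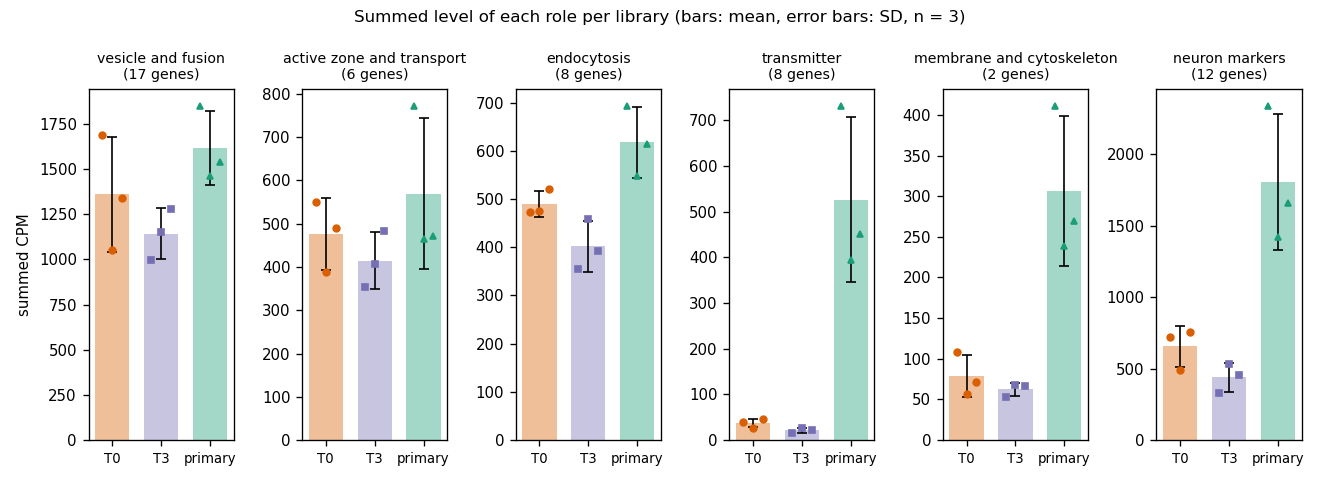
Summed CPM of each role in T0, T3 and primary libraries, with bars at the mean of 3 libraries, error bars of 1 SD and a point per library, beside the 12 neuronal markers. Bars start at 0. Transmitter genes drop to means of 37.5 CPM in T0 and 21.1 CPM in T3, and endocytosis genes to 490 and 402 CPM.

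VGlut, the vesicular glutamate transporter (chromosome arm 2L, 2400295 to 2410662), carried most of that sum. It had 35.0, 22.5 and 37.7 CPM in T0 and 18.0, 11.4 and 20.7 CPM in T3, against 566, 264 and 293 CPM in primary cells. It was 11.8-fold lower in T0 (log2 fold change -3.56 ± 0.32, adjusted p = 6.14e-06) and 22.2-fold lower in T3 (-4.47 ± 0.34, adjusted p = 1.45e-06). Per kb of exon it was second in order among the 41 genes in primary cells, at 65.5 ± 29.1 CPM per kb (SD, n = 3), behind Csp at 89.4 ± 4.69. In T0 it stood at 5.55 ± 1.41 and in T3 at 2.93 ± 0.83 CPM per kb.

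Of the other vesicular transporters, VAChT had 1.81, 1.65 and 2.87 CPM in T0 and 1.39, 0.881 and 1.80 CPM in T3, against 49.3, 26.9 and 29.7 CPM in primary cells, a 16.4-fold and a 25.2-fold fall. Its exons overlap those of ChAT, the acetylcholine synthesis gene of the same locus, by 606 bases on the same strand, and ChAT had log2 fold changes of -3.97 ± 0.51 and -4.16 ± 0.52. VGAT had 0.567, 1.47 and 1.84 CPM in T0 and 1.54, 0.377 and 1.03 CPM in T3, against 17.3, 13.0 and 16.6 CPM in primary cells, and was 11.7-fold and 15-fold lower. Vmat had 0.567, 0.0916 and 0.515 CPM in T0 and 0.0733, 0.126 and 0.428 CPM in T3, against 36.7, 22.2 and 22.1 CPM in primary cells. Its log2 fold changes were -6.08 ± 0.50 (adjusted p = 2.90e-06) and -6.93 ± 0.54 (adjusted p = 1.52e-06), and -8.02 in T3 without replicate 4, on 2 counts.

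VGlut was the main vesicular transporter transcript in every group. Per kb of exon, VGlut formed 86.8% of the summed level of the 4 transporters in T0 (83.4% to 92.0%) and 84.0% in T3 (80.3% to 87.8%), against 81.6% in primary cells (79.7% to 84.7%). The range of VGAT in primary cells, 5.48% to 9.56%, overlapped those of T0 and T3. Vmat formed 0.701% in T0 (0.238% to 1.05%) and 0.709% in T3 (0.229% to 1.22%), against 4.28% in primary cells (3.86% to 4.74%). These shares are a description without a test, and the lowest of them rest on few counts.

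Among the synthesis enzymes, Gad1, which makes GABA (chromosome arm 3L, 4074077 to 4088744), had 0.453, 0.550 and 0.736 CPM in T0 and 0.0733, 0 and 0.599 CPM in T3, against 48.3, 56.0 and 70.0 CPM in primary cells. Its log2 fold change was -6.58 ± 0.41 in T0 and -7.86 ± 0.46 in T3. Without T3 replicate 4, which held 7 of its 8 counts in T3, 1 count remained in T3 and the fitted value was -9.99. Ddc, which makes dopamine and serotonin from their precursors, had 0.453, 0.275 and 0.956 CPM in T0 and 0.513, 0.881 and 0.257 CPM in T3, against 5.40, 4.76 and 8.63 CPM in primary cells, with log2 fold changes of -3.41 ± 0.54 (-4.08 without T0 replicate 4) and -3.54 ± 0.55. Trh, the serotonin synthesis enzyme, was 9.85-fold lower in T0 and 9.70-fold lower in T3.

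The gene for tyrosine hydroxylase, ple, which supplies dopamine, was low throughout. It had 0.113, 0 and 0.0736 CPM in T0 and 0.367, 0.377 and 0.171 CPM in T3, against 1.24, 1.45 and 1.78 CPM in primary cells. Over T0 this was 2 counts against 54 in primary, a ratio of 0.0408 with a 95% counting interval of 0.00482 to 0.155. In T3 its log2 fold change was -2.26 ± 0.58 (adjusted p = 0.00714). Outside the nervous system ple and Ddc also serve cuticle tanning. Of 7 tanning genes, 4 were tested, of which 1 was higher and none lower in T0 and in T3. Of all tested genes 22.4% were higher and 23.2% lower in T0, and 23.1% and 24.1% in T3.

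The amyloid precursor homologue Appl had 63.4, 31.5 and 38.1 CPM in T0 and 35.8, 28.3 and 36.1 CPM in T3, against 284, 169 and 189 CPM in primary cells, and was 4.85-fold and 6.39-fold lower (adjusted p of 3.54e-05 and 1.02e-05). The microtubule-associated protein gene futsch had 44.7, 25.7 and 33.2 CPM in T0 and 31.2, 25.3 and 31.7 CPM in T3, against 127, 69.4 and 79.9 CPM in primary cells, and was 2.68-fold and 3.13-fold lower. For Appl and for futsch the lowest primary library lay above every transplanted one.

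**Figure D4:**
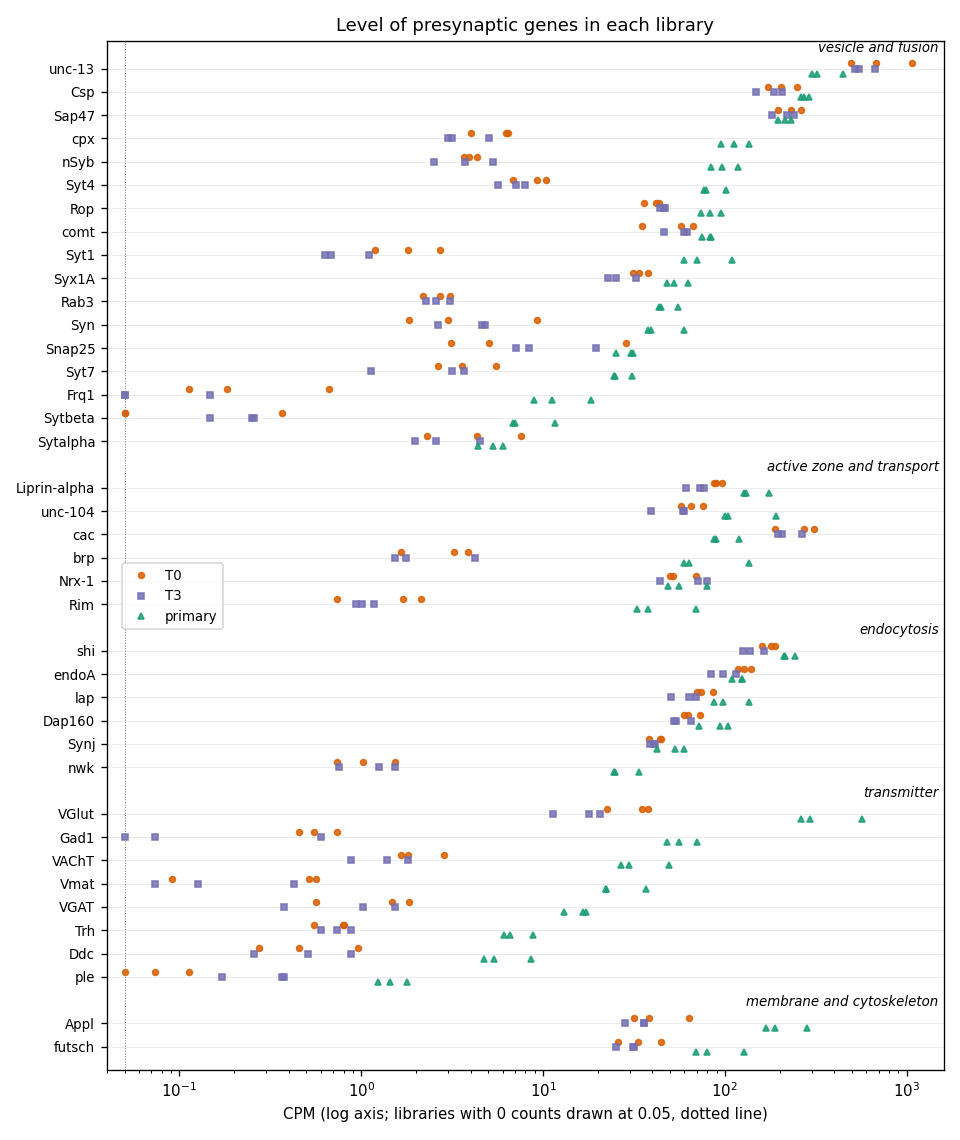
CPM of the 39 tested presynaptic genes in every library (log axis), by role, with T0 in orange circles, T3 in purple squares and primary in green triangles. Libraries with 0 counts are drawn at 0.05. Primary triangles lie far right of the transplanted libraries for genes such as nSyb, Syt1, brp, nwk and VGlut, and left of them for unc-13 and cac.

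Ordered per kb of exon, Csp led the list in the transplanted groups, with 67.6 ± 12.5 CPM per kb in T0 and 58.3 ± 9.54 in T3. Sap47, unc-13, endoA and shi followed, at 35.9 ± 5.42, 33.0 ± 13.1, 31.1 ± 2.67 and 29.4 ± 2.35 CPM per kb in T0 and 33.4 ± 4.62, 25.7 ± 3.60, 23.8 ± 3.76 and 23.8 ± 3.29 in T3 (SD, n = 3). In T0 the SD ranges of each gene of these 4 and the next overlapped. In primary cells Csp, VGlut, shi, Appl and Sap47 led.

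Other presynaptic genes, from lists outside the 41, were counted by the same roles. Of 19 further release and active zone genes, all tested, 10 fell and none rose in T0, and 10 fell and 1 rose in T3, beside 23.2% and 24.1% of all tested genes that fell, with median log2 fold changes of -0.44 and -0.66. The active zone scaffold gene Fife had values of -4.81 ± 0.41 in T0 and -4.45 ± 0.39 in T3, the vesicle membrane gene Syngr of -4.45 ± 0.33 and -4.20 ± 0.32, and Rgk1 of -5.07 ± 0.53 and -4.56 ± 0.51. Fife, Rgk1 and Frq2, which is also in this list, were tested only because of their level in primary cells. The 19 genes counted here include them. Cadps, which acts on dense-core vesicles, fell by 1.27 and by 1.68 on the log2 scale. The one that rose was Syt14 in T3, at 0.64 ± 0.17 (adjusted p = 0.00953). The general synaptobrevin Syb, used for fusion outside synapses, had 106 to 120 CPM in T0 and 115 to 134 CPM in T3, against 100 to 126 CPM in primary cells, and was not called, unlike its neuronal relative nSyb; the difference between these 2 genes was not tested.

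Of 10 further endocytosis genes, 2 fell in T0 and 4 in T3, and none rose, beside 23.2% and 24.1% of all tested genes that fell. Clathrin light chain, Clc, had the largest changes, at -0.82 ± 0.13 and -0.75 ± 0.13. The adaptor subunit gene AP-2mu followed in T0, at -0.58 ± 0.14, and in T3 AP-2alpha had -0.46 ± 0.14, Chc -0.42 ± 0.13 and AP-2mu -0.41 ± 0.13. Of 13 further transmitter genes, 9 fell and 1 rose in T0 and 10 fell and 1 rose in T3, with medians of -3.79 and -3.29. Of all tested genes 23.2% were lower and 22.4% higher in T0, and 24.1% and 23.1% in T3. Most of these 13 genes were tested only because of their level in primary cells, among them ChT, Eaat2, SerT and prt. The choline transporter ChT had 0.453, 0.275 and 0.441 CPM in T0 and 0.440, 0 and 0.599 CPM in T3, against 26.1, 20.3 and 23.4 CPM in primary cells. About 69.5% of the exon length of ChT is shared on the same strand with CG46318. The glutamate and amino acid transporter Eaat2 had log2 fold changes of -5.86 ± 0.65 and -6.59 ± 0.69. SerT, the serotonin transporter, had 3 counts over T0, against 177 over primary, and prt, a vesicular transporter gene, had 1 count over T0 and 3 over T3, against 184 over primary. Hn, phenylalanine hydroxylase, was the gene that rose, with 41 counts over T0 and 22 over T3, against 3 over primary (ratios of 15.1, counting interval 4.81 to 76.1, and 8.10, interval 2.43 to 42.3). It was tested only because of its level in the transplanted masses. Tdc1 and Tdc2, which make tyramine, were not called.

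T3 and T0 masses were compared last. None of the 39 genes, and none of the 9082 tested genes, was called by edgeR between T3 and T0, and 7 of the 39 had an unadjusted p under 0.05, as had 746 of all 9082. DESeq2 and limma-voom called none of the 39, and the authors' deposited table called none of them among its 26 calls over all genes. The median log2 fold change of the 39 was -0.30, beside -0.01 over all genes, and 32 of 39 were below 0, as were 51.9% of all genes. The members share these 6 libraries, so they are not independent of each other. Values of the T3 group lay wholly below those of the T0 group for Syt1, Liprin-alpha, endoA, lap and VGlut, and wholly above for Rop and ple. Such separation was found for 7.80% of all tested genes downwards and 7.33% upwards, or 15.1% in all, and 0.0% of all tested genes were called.

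VGlut had 18.0, 11.4 and 20.7 CPM in T3, against 35.0, 22.5 and 37.7 CPM in T0, a log2 fold change of -0.91 ± 0.31 (adjusted p = 0.591). With no filter on low counts it passed, at -0.89 (adjusted p = 0.0159, where the alternatives spanned 0.0159 to 0.951). Syt1 had a log2 fold change of -1.21 ± 0.43 (unadjusted p = 0.0147, adjusted p = 0.591). For ple, 10 counts over T3 stood against 2 over T0, a ratio of 5.01 with a counting interval of 1.07 to 47.0, and for Frq1 2 counts against 12, a ratio of 0.167 (0.0181 to 0.750).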

How the data were processed

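RNA-seq was done on 9 libraries, 3 per group. Per the labels, polyadenylated RNA was amplified for 13 PCR cycles and read as single reads of 75 nt; HTSeq, edgeR, HISAT2 2.1.0, bedtools 2.25.0 and the build dm6 are listed in the submitters' processing notes. Which annotation release and strand setting were used is not given there or in the labels.

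The authors deposited 3 tables, each with the same 9 columns of raw counts per gene. The authors' own comparison stands beside them, as a fold change (a ratio), its log2 and raw and adjusted p-values as deposited, and only the numbers of the authors' calls are given from these. Another 13 columns per table, of normalised values and means, were not used.

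Testing used edgeR 4.0.16 in R 4.3.3: TMM scaling, filterByExpr (minimum count 10), 1 model of group means fitted to all 9 libraries, and the two-sided quasi-likelihood test, adjusted by Benjamini-Hochberg over the 9082 genes tested. SE is the fold change over the root of F. The procedure was run on simulated data with 200 genes changed by 4-fold or 8-fold in T0. Smaller changes were not simulated, and the spread was preset rather than estimated from these libraries. Exon lengths, overlaps and positions come from the Ensembl annotation of dm6. Levels between genes are compared only as CPM per kb of merged exon. Counting intervals are exact (Clopper-Pearson, 95%), and cover counting error only, since PCR reads are not independent molecules. Replicate pairs had a chi-square over degrees of freedom between 15.4 and 79.8, above what sampling noise gives. The spread behind the p-values is that between these libraries.

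The 41 genes, the lists (174 symbols in all, of which 12 were matched by another name) and the tests were chosen with earlier results of these data known. Some list symbols were dropped after the files were read but before their values, as aliases of others. Members may all be named; from the other presynaptic lists, per comparison and direction, the named genes are at most 4 called and 2 uncalled ones, taken by smallest p. Beyond this rule, stj, Rbp, Syb, ase, onecut, Rbp9, Rdl, jeb, srp, PPO1 and Eaat1 were named after their values were seen. Frq2 and ChAT were named as genes that may share reads. Alternatives were RLE and upper-quartile scaling, no filter, a filter of 1 CPM in 3 libraries, DESeq2 1.42.0, limma-voom (limma 3.58.1), the 6 libraries compared alone, the replicate number as a block, and each library left out.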

Additional observations from a re-analysis of the deposited data

How the results depend on the processing

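The count of genes lower in T0 against primary was 29 and lay between 27 and 31 under the other tools, scalings, filters and sample sets, and between 26 and 30 with a library left out. In T3 against primary it was 30, and lay between 30 and 32. The count of genes higher in T0 was 2 in every alternative. In T3 it was 2, and 1 with RLE factors, and 1 to 2 with a library left out, since unc-13 dropped out; the cause was not tested. Between T3 and T0 the count of lower genes was 0, and 1 without a filter, where VGlut passed. No called fold change turned its sign in any alternative. Replicate numbers were not taken to pair the samples, since not every same-numbered pair of the 3 groups deviated together: same-numbered primary and T3 libraries had correlations of 0.121, 0.15 and 0.01 between their deviations, primary and T0 libraries of -0.057 and -0.046, and T0 and T3 libraries of 0.2 and 0.256. With a replicate block, 27 genes were lower in T0 and 32 in T3, and the T0 values of brp, Rim and Vmat were -4.10, -4.25 and -5.45. Genes at a few counts are limited by depth, with a floor of 3 counts at 0.219 to 0.377 CPM per library.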

Other observations

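Gene lists for cells of the host were measured beside the presynaptic genes. Of 11 hemocyte genes, 8 were tested, of which 5 were higher in T0 and 5 higher and 1 lower in T3 (of all tested genes 22.4% were higher and 23.2% lower in T0, and 23.1% higher and 24.1% lower in T3). They summed to 98.3 to 208 CPM in T0 and 84.5 to 108 CPM in T3, against 45.9 to 55.5 CPM in primary cells. Hml, a hemocyte gene, had log2 fold changes of 3.64 ± 0.49 and 2.93 ± 0.48. In the same list srp had 68 counts over T0 and 37 over T3, against 1 over primary, and PPO1 had 35 and 18, against 1. Genes this low in primary cells can pass the filter only through the transplanted libraries, and so have to differ. Of 10 adult fat body genes, 7 were tested, of which 5 were higher in T0, and 4 higher and 1 lower in T3. They summed to 107 to 265 CPM in T0 and 20.4 to 103 CPM in T3, against 24.6 to 25.6 CPM in primary cells, with the highest sum, 265 CPM, in T0 replicate 2. Of 6 ovary genes, 5 were tested: 2 were higher and 1 lower in T0, and 1 was lower in T3, with sums of 47.0 to 95.4 CPM in T0 and 40.0 to 59.9 CPM in T3, against 37.3 to 56.7 CPM in primary cells. Of 10 muscle genes, 4 were tested and 1 was lower in each comparison, with sums of 5.22 to 11.5 CPM in T0 and 5.03 to 8.98 CPM in T3, against 12.7 to 24.5 CPM in primary cells. Of 6 gut genes, 1 was tested, which was higher in T0 and not called in T3. It too could pass the filter only through the transplanted libraries, since the 6 genes summed to at most 0.292 CPM in primary. The 10 heat shock and dissociation genes, of which 9 were tested, had 5 lower and 1 higher in T0 and 7 lower and 1 higher in T3. They summed to 3020 to 7590 CPM in T0 and 2800 to 4420 CPM in T3, against 7690 to 14600 CPM in primary cells. The highest T0 sum, 7590 CPM, was that of replicate 2. Of 9 glial genes, 8 were tested: 4 were lower and 1 higher in T0, and 3 lower and 1 higher in T3. They summed to 759 to 969 CPM in T0 and 559 to 799 CPM in T3, against 533 to 727 CPM in primary cells. Among them Eaat1 averaged 510 CPM in T0 and 366 CPM in T3, against 192 CPM in primary cells. The glial identity gene repo had a log2 fold change of -2.49 ± 0.49 in T0 and was not called in T3 (-0.77 ± 0.45). The part of these cells in the presynaptic values was not tested.

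Among the 12 neuronal markers, onecut and Rbp9 were not called in either comparison. The level of onecut was 303, 222 and 338 CPM in T0 and 215, 150 and 251 CPM in T3, against 275, 171 and 208 CPM in primary cells. The receptor gene Rdl had 0.0916 to 0.809 CPM in T0 and 0.0855 to 0.293 CPM in T3, against 41.3 to 53.7 CPM in primary cells.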
